A study of Rattus norvegicus with 30 samples.

Results

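The Bcl2 family was examined in the hearts of 30 rats through 10 of its genes, of 24752 gene names in all. The 10 genes are the anti-apoptotic Bcl2, Bcl2l1, Bcl2l2 and Mcl1, the effectors Bax, Bak1 and Bok, and the BH3-only genes Bad, Bid and Bcl2l11. They were chosen by symbol, with earlier results of these data known. Every row of the expression tables of the 3 ages that carries one of these names was taken. Each table held 14 such rows, and the arrays held 19 probes for them among 41012.

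Expression was measured in whole hearts of untreated F344 rats, an inbred strain, with 5 females and 5 males at each of 8 weeks (young), 21 weeks (adult) and 78 weeks (old) and 1 array per rat. The hearts were Agilent 1-color hybridizations with Cy3 on 8 slides, each with rats of both sexes. Females always took the even array positions of a slide and males the odd ones, so that position and sex cannot be told apart. The study's methods place the ages in different batches, so that age and batch cannot be told apart either, although 1 slide held 4 rats of 8 and 78 weeks. Whole hearts mix cell types, and fewer cells of a type and less RNA per cell cannot be told apart.

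Proteins of the Bcl2 family decide whether the outer mitochondrial membrane is opened during apoptosis. Bax and Bak1 form the pores through which cytochrome c leaves, the anti-apoptotic members bind them or their activators through a groove that accepts a short helix called the BH3 domain, and the BH3-only proteins carry stress signals to both sides. In cardiomyocytes, which are rarely replaced, Mcl1 and Bcl2l1 (the gene of Bcl-xL) are known to protect mitochondria, while Bax and Bak1 are known for cell loss after ischemia. These proteins are regulated to a large extent after transcription, and mRNA levels alone were measured here.

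The probes are 60-base sequences from the scanner files, of which 4 that read coding sequence of different members are shown. The Bax and Bcl2 probes carry values given below. The Bcl2l1 probe shown (A_44_P548065, above background on 26 arrays) and the Bcl2l2 probe shown (A_44_P112788, on 16) are dim, and most values of these genes below come from other, brighter probes. The Bax probe begins in the codons of the BH3 core, capitalized, which is the stretch of Bax that its partners bind. The Bcl2 probe and a Bcl2l1 probe both cover the codons of the BH4 core, capitalized, a motif of the anti-apoptotic members. Between these 2 probes 12 of the 15 capitalized bases were the same. The Bcl2l2 probe is shown without capitals.
Bax: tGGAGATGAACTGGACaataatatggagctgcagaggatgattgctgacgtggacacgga
Bcl2: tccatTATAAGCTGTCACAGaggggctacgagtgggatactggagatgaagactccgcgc
Bcl2l1: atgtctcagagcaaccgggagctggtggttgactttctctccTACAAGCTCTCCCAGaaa
Bcl2l2: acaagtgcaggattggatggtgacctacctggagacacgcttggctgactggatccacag

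The scanner files place the Bcl2 probe at chr13:12904758-12904817, the Bcl2l1 probe at chr3:143084125-143084184, both on the minus strand, and the Bcl2l2 probe at chr15:33000170-33000229 on the plus strand, all on the rat build rn3. They give no position for the Bax probe. The tables hold a second row named Bax, whose single probe (A_44_P489512) was designed to a predicted transcript of LOC681314, described as similar to a Bax isoform, and lies at chr10:90643079-90643138 on rn3. The RefSeq gene table, on assembly GRCr8, places Bax on chromosome 1 and LOC681314 on chromosome 10. The rows were therefore kept apart, and Bax below is the row of NM_017059, read by 10 spots. The brighter of the Bid rows is likewise an expressed sequence tag (BG666928) at chr4:157540790-157540849 on rn3, on the strand of the other Bid probe.

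Of the 19 probes, 12 were well above background on all 30 arrays, 5 on some and 2 on none. The probes above background everywhere read Mcl1 (2 probes), Bcl2l1 (2 of its 4), Bcl2l2 (1 of 2), Bax, LOC681314, Bak1, Bok, Bad (2 probes) and the Bid tag. Bcl2 was dim, since each of its 2 probes passed background on 22 arrays, and Bcl2l11, the gene of the BH3-only protein Bim, passed on 14. The other Bid probe (NM_022684) and 1 Bcl2l1 probe (A_43_P12577) passed on no array. In the tables, 10, 9 and 11 of the 14 rows were above background on all 10 arrays at 8, 21 and 78 weeks.

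Facts of the arrays that touch these results were as follows. The 75th percentile of the processed signal, by which each array was scaled, ran from 98.0 to 171.3 at 8 weeks and from 83.5 to 123.6 at 78 weeks. At 21 weeks it ran from 82.7 to 123.1 in females and from 39.9 to 104.8 in males. In 78-week rats, the array labelled female replicate 2 had the Y-linked Ddx3y and Eif2s3y at male level, and the array labelled male replicate 3 had them at female level, so 78-week values are also given with both left out where that changed them most. All 17 cardiomyocyte marker probes (Myh6, Myl2, Tnnt2, Tnni3, Actn2 and Ryr2) passed background on at least 1 array, and 1 leukocyte marker, Cd79a, was never above it. With 5 rats per sex, the number of arrays limits the precision of each value.

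**Figure D1:**
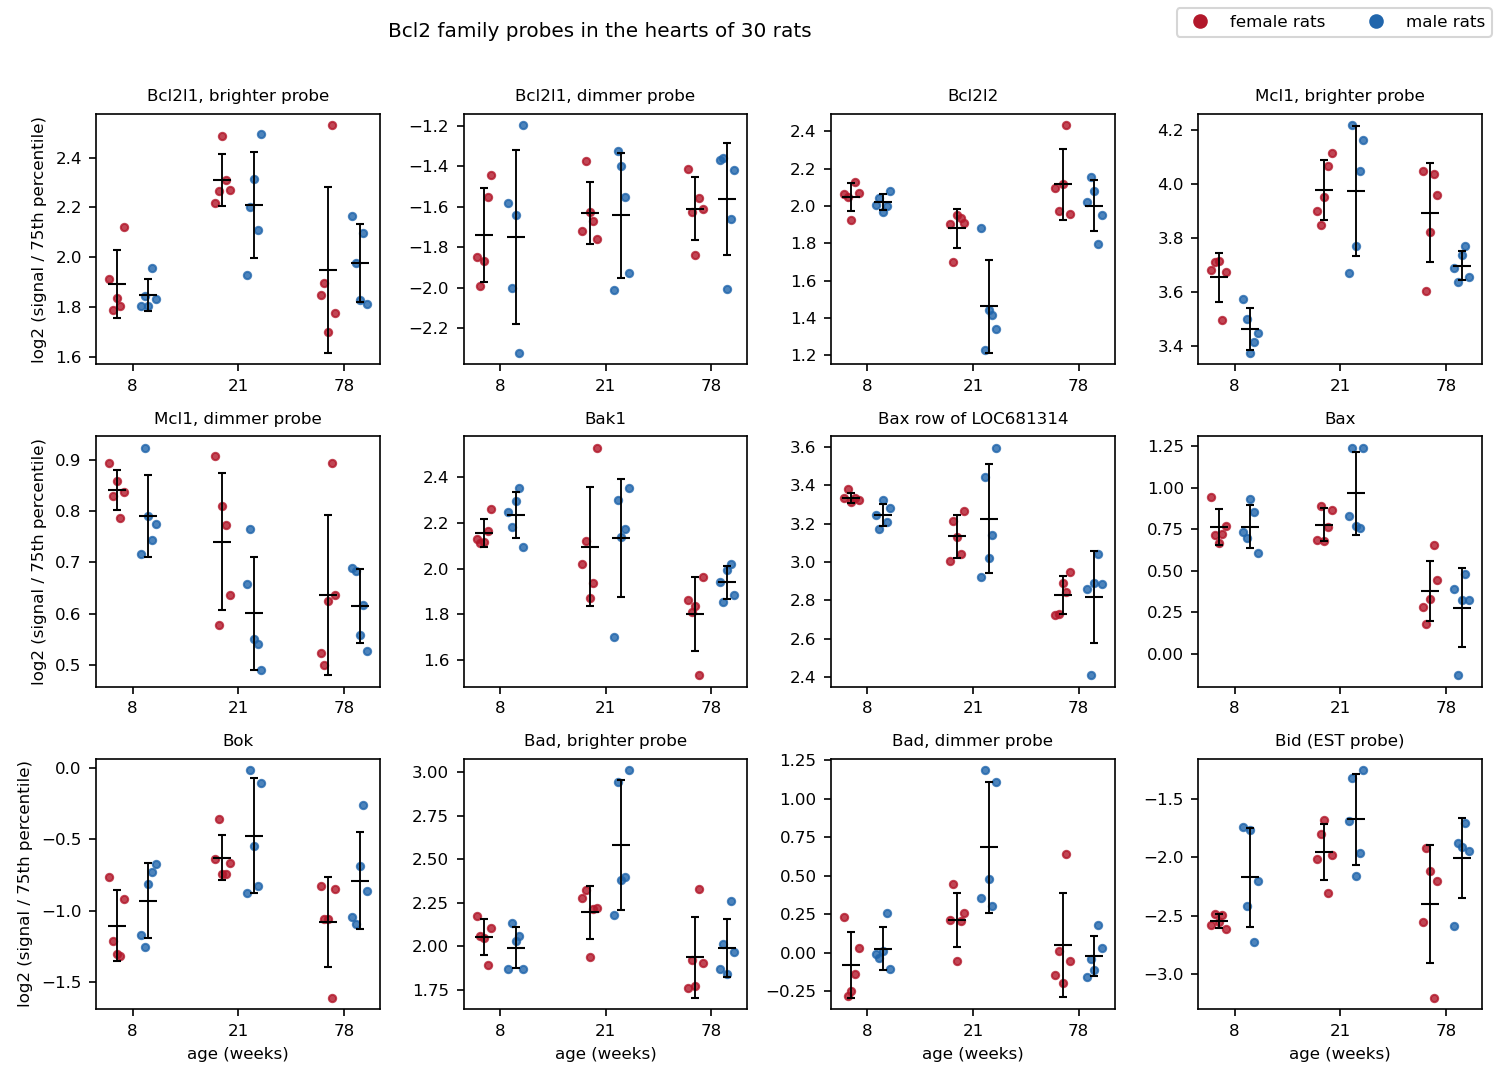
Levels of the 12 member probes that were well above background on all 30 arrays, as log2 of the scanner signal scaled to the array's 75th percentile (y axis, with its own range in each panel), by age in weeks (x axis). Points are rats, red for females and blue for males, and bars show the mean and SD of 5 rats; Bax and Bak1 lie lower at 78 than at 8 weeks.

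The first comparison asked whether females and males of one age differed. No member row passed a test across all rows at any age. None of the 14 passed limma's adjusted p of 0.05 at 8, 21 or 78 weeks, and 0.102, 0.0511 and 0% of all rows did. At an unadjusted p under 0.05, 0, 1 and 0 member rows passed, beside 5.74, 15.9 and 5.65% of all rows. The lowest adjusted p of a member was 0.30. Values in this comparison are log2 of the authors' tables, in which 0 is the 75th percentile, and differences are female minus male with the SE of limma. The median difference over all rows was -0.14 at 21 weeks and near 0 at the other ages (-0.004 at both), so 21-week differences are to be read against that shift.

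Among the anti-apoptotic genes, Mcl1, whose short-lived protein holds Bak1 and Bim, had a higher mean in females at each age. At 8 weeks the females measured 1.60, 1.56, 1.60, 1.46 and 1.57 and the males 1.47, 1.53, 1.41, 1.42 and 1.42, so that 4 of the 5 females lay above all males. The difference was 0.11 ± 0.06 (SE, n = 5 per sex), with an exact two-sided permutation p of 0.0238 and an adjusted p of 0.91 by limma. At 21 weeks it was 0.06 ± 0.11 and at 78 weeks 0.09 ± 0.09. Without the 2 arrays whose Y-linked genes went against their labels, the 78-week difference was 0.14 with an exact permutation p of 0.0286, the smallest that 4 rats per sex allow. After normexp background correction it was -0.080. The Mcl1 row is the mean of 2 probes, which separated the sexes at different ages. On the brighter probe, scaled to the array, females and males averaged 3.66 and 3.46 at 8 weeks, 3.98 and 3.97 at 21 weeks and 3.89 and 3.70 at 78 weeks. On the dimmer probe they averaged 0.84 and 0.79, 0.74 and 0.60, and 0.64 and 0.62.

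Bcl2l1 (NM_001033670) differed by 0.03 ± 0.08 at 8 weeks, 0.09 ± 0.13 at 21 weeks and -0.05 ± 0.16 at 78 weeks. Bcl2l2, the gene of Bcl-w, differed by -0.16 ± 0.16, 0.03 ± 0.28 and 0.05 ± 0.17 in the same order, and the 78-week value turned to -0.12 with both arrays of doubtful sex left out. Each was near or below its SE. The Bcl2l2 row is the mean of a probe above background on all arrays and a probe above it on 16, and the bright probe alone (A_44_P550346) separated the sexes more at 21 weeks. On that probe, scaled to the array, the 21-week females measured 1.90, 1.70, 1.95, 1.93 and 1.91 and the males 1.88, 1.23, 1.44, 1.42 and 1.34. The lowest of the females was above all males but 1. The sex difference of that probe at 21 weeks exceeded the one at 8 weeks by 0.39 ± 0.15, with an adjusted p of 0.29 for the interaction in limma.

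Among the effectors, Bax overlapped between the sexes at each age. At 8 weeks females measured 0.26, 0.01, -0.02, 0.04 and 0.08 and males 0.06, 0.01, 0.26, 0.19 and -0.09, a difference of -0.01 ± 0.09. At 21 weeks the difference was -0.20 ± 0.14, with males of replicates 2 and 5 highest at 0.53 and 0.50 and the other males at 0.09 to 0.14 among the females. At 78 weeks it was 0.08 ± 0.13, and 0.14 with both arrays of doubtful sex left out. The row of LOC681314 differed by 0.08 ± 0.05 at 8 weeks (exact permutation p of 0.0317), -0.11 ± 0.15 at 21 weeks and -0.01 ± 0.12 at 78 weeks.

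Bak1, which sits in the outer mitochondrial membrane where Bax arrives from the cytosol, differed by -0.09 ± 0.07, -0.05 ± 0.17 and -0.16 ± 0.10 at the 3 ages. In old rats the females measured 1.05, 1.03, 1.04, 0.72 and 1.18 and the males 1.16, 1.09, 1.23, 1.20 and 1.13. The lowest value was female replicate 4, and the groups overlapped through the highest female. The exact two-sided permutation p was 0.0476 and limma's adjusted p 0.86, and with both arrays of doubtful sex left out the exact permutation p was 0.171. Bok, an effector that the anti-apoptotic members hold weakly, differed by -0.19 ± 0.16, -0.17 ± 0.19 and -0.31 ± 0.19 with adjusted p of 0.94, 0.62 and 0.86 by limma.

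Among the BH3-only genes, Bad, which binds Bcl2 and Bcl-xL once it is dephosphorylated, had the largest sex difference relative to its spread at 21 weeks. The females measured 0.54, 0.68, 0.23, 0.51 and 0.52 and the males 0.58, 1.35, 0.76, 0.68 and 1.32. Male replicate 2, the weakest array of the study, and male replicate 5 were the highest. The difference was -0.44 ± 0.19 with an exact two-sided permutation p of 0.0159 and a limma adjusted p of 0.30, and at 8 and 78 weeks it was -0.03 ± 0.09 and -0.01 ± 0.14. The Bid tag differed by -0.39 ± 0.18, -0.29 ± 0.20 and -0.41 ± 0.26 at the 3 ages, with limma adjusted p of 0.88, 0.42 and 0.86, and the last became -0.51 with both arrays of doubtful sex left out. Bid joins the death receptor pathway to mitochondria after cleavage by caspase-8.

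Whether the sex difference changed with age was tested directly. None of 57 interaction tests (19 probes, 3 pairs of ages) passed an adjusted p of 0.05 in limma, beside 0.00244, 0 and 0.00244% of all probes for 21 against 8, 78 against 8 and 78 against 21 weeks, and 3 had an unadjusted p under 0.05, beside 16.5% of all probes for 21 against 8 weeks, 12.7% for 78 against 21 weeks and 2.33% for 78 against 8 weeks. The 3 were the Bcl2l2 probe above and the probes of Bad. For Bad the sex difference changed by -0.45 ± 0.20 from 8 to 21 weeks (A_44_P991565) and by 0.54 ± 0.24 from 21 to 78 weeks (A_44_P199624).

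**Figure D2:**
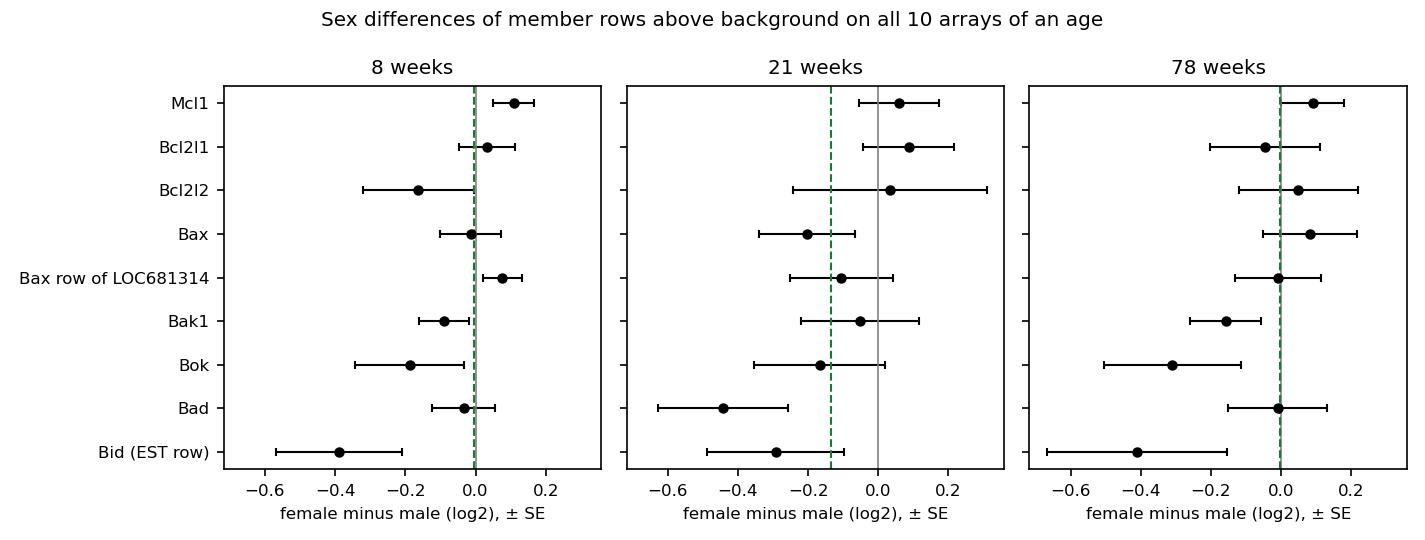
Female minus male difference in log2 table value (x axis) with its SE from limma for 9 member rows that were well above background on all 10 arrays of each age (y axis), n = 5 rats per sex. The solid line marks 0 and the dashed line the median of all rows of that age (-0.14 at 21 weeks); no row passed an adjusted p of 0.05.

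Ages were compared on log2 of the scanner signal scaled to each array's 75th percentile, in 1 limma fit of all 30 arrays with the slide as a random block, because the tables of the 3 ages were made separately. Between old and young rats the effectors Bax and Bak1 were lower, and the anti-apoptotic probes that passed, both of Mcl1, went in opposite directions. Adjusted p fell under 0.05 for 6 of the 19 member probes, beside 10.8% of all probes. Of the 6, 4 were lower at 78 weeks (4.89% of all probes) and 2 higher (5.93% of all probes). The lower ones were Bax, LOC681314, Bak1 and 1 of the Mcl1 probes. The higher ones were the other Mcl1 probe and the dim Bid probe. By role, the median difference was -0.38 over the 4 effector probes, 0.17 over the 10 anti-apoptotic probes and 0.05 over the 5 BH3-only probes, beside 0.13 over all probes. These medians count dim probes as well, and the effector probes include that of LOC681314. The anti-apoptotic probes above background on all 30 arrays differed by 0.24, 0.17, 0.09, 0.03 and -0.19.

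Bax had a median of 0.73 in young rats, with a range of 0.61 to 0.95, and of 0.33 in old rats, with a range of -0.13 to 0.65. Of the 10 old rats, 9 lay below all young rats, and the exception, female replicate 4, lay among them. The difference was -0.44 ± 0.08 (SE, n = 10 per age), a level 1.36-fold lower in old rats, with an adjusted p of 6.4e-04 by limma. The order of the 6 group means ran from males at 21 weeks (0.97) through females at 21 weeks (0.78) and both sexes at 8 weeks (0.76 each) to females (0.38) and males (0.28) at 78 weeks. Among neighbours in this order, the step from 8-week males or females to 78-week females exceeded the SD of both groups, and the other steps did not.

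The row of LOC681314 moved alike. It ranged from 3.17 to 3.38 in young rats with a median of 3.32, and from 2.41 to 3.04 in old rats with a median of 2.87, so that all 10 old rats lay below all young rats. The difference was -0.47 ± 0.08 with a limma adjusted p of 1.4e-04. A second probe of LOC681314, which the tables do not name Bax, had means of 0.88 ± 0.13 (SD, n = 10) at 8 weeks, 0.94 ± 0.24 at 21 weeks and 0.43 ± 0.26 at 78 weeks. Whether these probes and the Bax probe read the same transcript was not tested.

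Bak1 ranged from 2.09 to 2.35 in young rats with a median of 2.17, and from 1.53 to 2.02 in old rats with a median of 1.87. All 10 old rats lay below all young rats. The difference was -0.33 ± 0.08, a level 1.25-fold lower, with a limma adjusted p of 0.0074. The third effector, Bok, differed by 0.09 ± 0.13 with an adjusted p of 0.65.

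Mcl1 gave opposite answers on its 2 probes, which lie on the unplaced part of chromosome 2 on rn3. The brighter probe (A_44_P280965) ranged from 3.37 to 3.71 in young and from 3.61 to 4.05 in old rats, and 6 of the 10 old rats lay above all young rats. Its difference was 0.24 ± 0.07 with a limma adjusted p of 0.030. The dimmer probe (A_44_P101211) ranged from 0.72 to 0.92 in young and from 0.50 to 0.89 in old rats, and 9 of the 10 old rats lay below all young rats. Its difference was -0.19 ± 0.06 with an adjusted p of 0.036. These calls were less firm than those of the effectors, since leaving out 1 array at a time ended that of the brighter probe in 5 of 30 fits and that of the dimmer probe in 12, with limma adjusted p of at most 0.067 and 0.082, and leaving out the 2 arrays at odds with their labels ended that of the dimmer probe (0.122). The residuals of the brighter probe ran against the 75th percentile of the array (r = -0.63 over 30 arrays) and those of the dimmer probe did not (r = -0.08), and the part of this in the result was not tested.

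The other anti-apoptotic probes above background on all arrays did not pass. Bcl2l1 differed by 0.09 ± 0.09 on the probe of NM_001033670 and by 0.17 ± 0.12 on the other (A_42_P623909). Bcl2l2 differed by 0.03 ± 0.07, and normexp background correction turned Bcl2l1 (NM_001033670) to -0.26 and Bcl2l2 to -0.35. Among the BH3-only genes the Bad probes differed by -0.06 ± 0.09 and 0.05 ± 0.11, and the Bid tag by 0.17 ± 0.15. The called Bid probe passed background on no array, and no fold is given for it. Its call was lost without the 2 arrays at odds with their labels (adjusted p of 0.067). Bcl2l11 passed background on 7 young and 2 old arrays, and its difference was -0.24 ± 0.25.

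Bax, LOC681314 and Bak1 kept their direction within a scan day and a slide that held both ages, neither of which the methods name as a batch. On the arrays of the first scan day, which held all 8-week rats and 78-week replicates 1 to 3, Bax differed by -0.54, LOC681314 by -0.54 and Bak1 by -0.31 (limma adjusted p of 4.3e-04, 1.2e-04 and 9.9e-04), beside 29.5% of all probes that passed there. On the 4 arrays of the slide shared by both ages the values were -0.35, -0.51 and -0.28, with no probe of the array passing an adjusted p of 0.05. In females alone Bax differed by -0.38 (limma adjusted p of 0.056) and Bak1 by -0.35 (0.146), and in males alone by -0.49 (0.120) and -0.30 (0.326). The calls of Bax and Bak1 in the fit of both sexes held with each of the 30 arrays left out in turn, and also with both arrays of doubtful sex left out (-0.41 and -0.33). Normexp background correction ended them (adjusted p of 0.076 for each by limma, at -0.36 and -0.60) and turned the brighter Mcl1 probe to -0.30, in a scaling that put the median difference of all probes at 0.39. With quantile normalization after normexp, an alternative added after the data were seen, Bax, Bak1 and both Mcl1 probes passed again, at -0.30, -0.28, 0.25 and -0.13.

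Markers of some cell types moved with age as well. Signal was summed, in units of the 75th percentile, over the probes of a list above background on at least 1 array. The fibroblast sum (Col1a1, Col1a2, Col3a1, Dcn and Pdgfra, 11 of 12 probes) ran from 532.7 to 658.8 in young rats and from 246.4 to 430.4 in old rats. Of the 12 probes, 6 were lower and 1 higher by adjusted p. The cardiomyocyte sum ran from 1502 to 2191 in young and from 1819 to 2381 in old rats, with 1 probe of 17 higher. The endothelial sum (6 of 7 probes) ran from 12.4 to 13.96 and from 13.3 to 17.5, although 2 of the 7 probes were lower and 0 higher by adjusted p. The smooth muscle sum ran from 11.5 to 19.2 and from 15.3 to 34.2, with 0 of 5 probes passing an adjusted p of 0.05. The leukocyte sum (10 of 11 probes) ran from 6.53 to 9.23 and from 6.54 to 13.0, with 3 of the 11 probes higher and 0 lower. All of these sums except that of fibroblasts overlapped between the ages. Of the erythroid probes, 2 of 4 were higher and 0 lower by adjusted p, and of the skeletal muscle probes 1 of 5 was higher and 0 lower. Of all probes, 5.93% were higher and 4.89% lower in this comparison. The part of these cell types in the lower Bax and Bak1 levels was not tested.

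**Figure D3:**
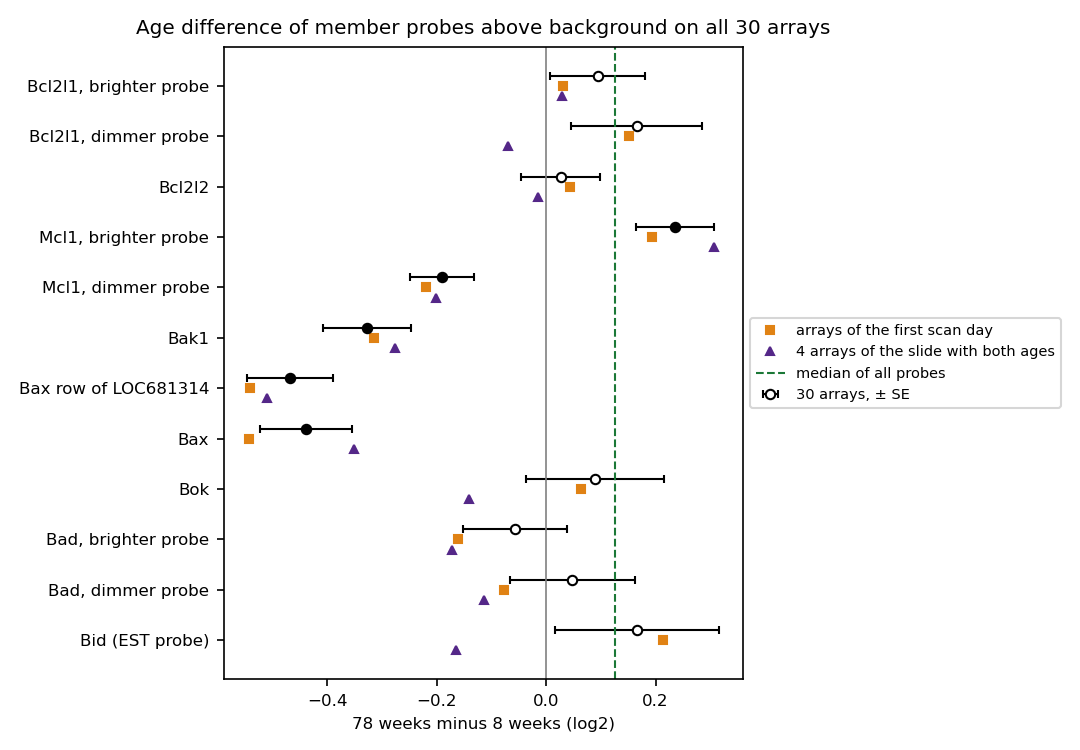
Difference between 78 and 8 weeks in log2 of the scaled signal (x axis) for the 12 member probes above background on all 30 arrays (y axis). Circles with SE are the fit of 30 arrays, filled where the adjusted p was under 0.05, squares are the arrays of the first scan day, triangles the 4 arrays of the slide with both ages, and the dashed line is the median of all probes (0.13); Bax, LOC681314 and Bak1 lie below 0 by all 3 measures.

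Adult rats stood apart from both other ages over much of the array, with 56.7% of all probes passing an adjusted p of 0.05 between 21 and 8 weeks and 32.2% between 78 and 21 weeks, beside 13 and 11 of the 19 member probes. Of the 13, 8 were higher at 21 weeks (41.5% of all probes) and 5 lower (15.2%), and of the 11, 4 were higher at 78 weeks (14% of all probes) and 7 lower (18.3%). The median difference over all probes was 0.28 and -0.17 in these comparisons, which share the 21-week arrays. Quantile normalization brought these medians to 0.05 and -0.05.

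Bcl2 was near background at 21 weeks on the probe of its beta transcript (AF149299). It was above background on all 10 arrays at 8 weeks, where it ranged from -3.02 to -1.56, and on all 10 at 78 weeks, where it ranged from -2.72 to -1.01. At 21 weeks it was above background on 2 of 10 arrays, 1 of each sex, and ranged from -5.34 to -3.25, so that no adult rat overlapped the other ages. The difference was -2.10 ± 0.23 between 21 and 8 weeks and 2.53 ± 0.23 between 78 and 21 weeks, with limma adjusted p of 1.3e-07 and 5.3e-09, where the size is uncertain because most 21-week arrays were not above background. Within the second scan day, which held all 21-week rats and 78-week replicates 4 and 5, the latter difference was 2.36 (adjusted p of 0.0024), and it was the 1 member probe to pass there, beside 7.72% of all probes. The probe of the main Bcl2 transcript, whose sequence is given above, passed background on 9, 3 and 10 arrays at the 3 ages and differed by -0.47 ± 0.16 and 0.66 ± 0.16.

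The bright anti-apoptotic probes split at 21 weeks. Compared with 8 weeks, Mcl1 was 0.41 ± 0.07 higher on its brighter probe while its dimmer one fell by 0.14 ± 0.06, Bcl2l1 (A_44_P254238) rose by 0.39 ± 0.09, and Bcl2l2 (A_44_P550346) fell by 0.36 ± 0.07, all with an adjusted p under 0.05 by limma. The other Bcl2l1 probe above background on all arrays (A_42_P623909) did not pass, at 0.12 ± 0.12 from 8 to 21 weeks and 0.05 ± 0.12 from 21 to 78 weeks. Normexp background correction turned the brighter Mcl1 probe to -0.048 and ended all member calls that involve 21 weeks. From 21 to 78 weeks Bcl2l1 fell by 0.29 ± 0.09 and Bcl2l2 rose by 0.39 ± 0.07, so that both were near their 8-week level again. From 8 to 21 weeks Bcl2l2 differed by -0.17 in females and -0.56 in males.

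Of the effectors, Bax and Bak1 did not pass between 21 and 8 weeks, at 0.10 ± 0.08 and -0.09 ± 0.08, and both passed between 78 and 21 weeks, at -0.54 ± 0.08 (limma adjusted p of 9.7e-06) and -0.24 ± 0.08 (0.021). All 10 old rats lay below all adult rats for Bax and 1 did for Bak1. Within the second scan day neither gene passed between these ages, at -0.39 for Bax (limma adjusted p of 0.087) and -0.26 for Bak1 (0.338). Bok rose by 0.47 ± 0.12 to 21 weeks and fell by 0.38 ± 0.12 to 78 weeks, where the second call was lost in 2 of 30 fits with 1 array left out. The BH3-only Bad rose by 0.36 ± 0.09 and 0.48 ± 0.11 on its probes to 21 weeks and fell by 0.42 ± 0.09 and 0.43 ± 0.11 afterwards, and the Bid tag rose by 0.54 ± 0.15 to 21 weeks, all with a limma adjusted p under 0.05. At 21 weeks the fibroblast sum ran from 294.3 to 396.7 and the endothelial sum from 5.66 to 11.9, both below all 8-week rats. The cardiomyocyte sum ran from 2008 to 5190, although 6 of its 17 probes were higher and 8 lower than at 8 weeks by adjusted p. The skeletal muscle sum was at most 1.16 at 8 weeks. At 21 weeks its highest value was 12.3 in females, with a median of 0.80, and 0.83 in males. All 4 erythroid probes were higher than at 8 weeks by adjusted p. Of all probes, 41.5% were higher and 15.2% lower in this comparison. The part of these cell types in the 21-week values was not tested.

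The balance of the family within a rat was described as the mean log2 level of the effectors (Bax, Bak1 and Bok) minus that of the anti-apoptotic genes (Bcl2l1, Bcl2l2 and Mcl1). Each gene was the mean of its probes above background on all 30 arrays, the row of LOC681314 was left out, and 0 was set at the mean of the 8-week rats. As probes differ in their response, only shifts of this index can be read. Neither the index nor the single pairs below were computed with normexp. In that processing the bright probes of Mcl1, Bcl2l1 and Bcl2l2 were also lower at 78 than at 8 weeks. It was 0.16 ± 0.27 (SD, n = 10) at 21 weeks and -0.28 ± 0.26 at 78 weeks. Of the old rats, 7 lay below all young rats and 3 among them. By sex the 78-week means were -0.37 ± 0.26 in females and -0.20 ± 0.26 in males (n = 5 each), within 1 SD of each other. At 21 weeks they were 0.00 ± 0.18 and 0.31 ± 0.27. With both arrays of doubtful sex left out, the 78-week means were -0.39 ± 0.30 and -0.23 ± 0.28 (n = 4 each), and 6 of 8 old rats lay below all young rats. With Bad and Bid added to the effectors the index was 0.28 ± 0.31 at 21 weeks, with 5 rats above all young rats, and -0.16 ± 0.26 at 78 weeks, with 4 rats below them.

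Single pairs of Bax or Bak1 with an anti-apoptotic gene were described in the same way, without Bok and without Bak1 against Bcl2l2. They reuse the values in which Bax and Bak1 were called lower at 78 weeks, so they are not separate support for a shift. Bax relative to Mcl1 was -0.46 ± 0.16 at 78 weeks, and all 10 old rats lay below all young rats, although the Mcl1 mean joins probes of opposite direction. Bax relative to Bcl2l1 was -0.56 ± 0.25, with 7 old rats below all young rats, and relative to Bcl2l2 it was -0.46 ± 0.25, with 9. Bak1 relative to Mcl1 was -0.35 ± 0.23, with 9, and relative to Bcl2l1 -0.45 ± 0.28, with 6. At 21 weeks the pairs went apart. Bax was -0.03 ± 0.21 relative to Mcl1, -0.14 ± 0.24 relative to Bcl2l1 and 0.47 ± 0.45 relative to Bcl2l2. Bak1 was already lower at 21 weeks, at -0.22 ± 0.24 relative to Mcl1, with 5 adult rats below all young rats. Relative to Bcl2l1 it was -0.33 ± 0.24, with 6 below.

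**Figure D4:**
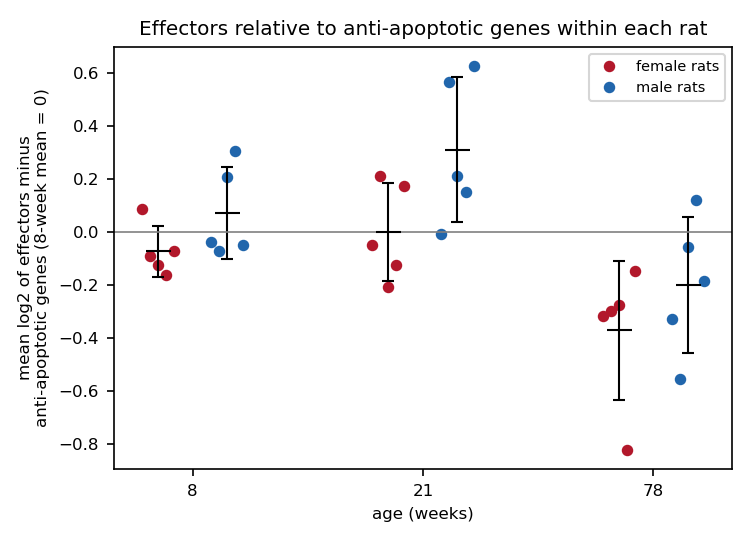
Mean log2 level of Bax, Bak1 and Bok minus that of Bcl2l1, Bcl2l2 and Mcl1 in each rat (y axis, with the mean of the 8-week rats at 0) by age in weeks (x axis). Points are rats, red for females and blue for males, with the mean and SD of 5; the old rats average -0.28, and 7 of 10 lie below all young rats.

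Members also varied together among rats of one group. After the mean of each sex and age was subtracted, the 66 pairs of the 12 bright probes had Pearson correlations of -0.66 to 0.89 with a median of 0.20, over 30 arrays that share 8 slides and differ in overall signal. The Bad probes had the highest correlation (0.89), followed by Bax with LOC681314 (0.80) and Bax with Bad (0.75 and 0.67). Bcl2l2 ran against Bok and Bak1 (-0.66 each). The Mcl1 probes were at 0.19 with each other.

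Outside the family, the genes most like each member were found in the same way among 14855 bright probes. They were TC518924 (0.93) and Fbxo6b (0.89) for Bax, Lgals3 (0.86, after the unnamed BF406820 at 0.88) for Bak1, Gabarap (0.92) for LOC681314 and Dnajc4 and Rfxank (0.92 each) for Bad. For Bcl2l1 it was Tnni1 (0.84), for Bcl2l2 Mpdz (0.85, after TC520809 at 0.87), for Mcl1 Pebp1 (0.83, after BM384088 at 0.83), for Bok AA800604 (0.83) and for Bid Idi1 (0.74). These are descriptions over 30 arrays, as the highest of many.

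Related genes of the pathway were taken from lists. Among 9 further BH3-only genes with 13 probes, 2 probes were higher and 2 lower at 78 than at 8 weeks by adjusted p, beside 5.93 and 4.89% of all probes. Bbc3, the gene of Puma, fell by 0.52 ± 0.10 (limma adjusted p of 6.0e-04), and Bmf, which is released from the cytoskeleton, fell by 0.50 ± 0.13. Becn1, an autophagy gene with a BH3 domain, rose by 0.21 ± 0.05, and Hrk, above background on 8 arrays, was 0.77 ± 0.23 higher. Of 4 other Bcl2-like genes (Bcl2a1d, Bcl2l10, Bcl2l12 and Bcl2l13), none passed. At an unadjusted p under 0.05 in limma, 0 did, beside 29.8% of all probes.

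Downstream of the membrane, 2 of 32 probes were higher and 3 lower, beside the same shares of all probes (5.93 and 4.89%). Casp6, a caspase gene, fell by 0.34 ± 0.08. Of the inhibitor genes, Birc2 fell by 0.37 ± 0.10 and Birc3 rose by 0.30 ± 0.08. Upstream, 1 of 30 probes was higher and 4 lower, beside those shares. Casp2 fell by 0.53 ± 0.07 (limma adjusted p of 3.8e-06), the 14-3-3 gene Ywhaz fell by 0.32 ± 0.07 and the kinase gene Mapk8 by 0.28 ± 0.08. Another 14-3-3 gene, Ywhae, rose by 0.63 ± 0.21 on 1 probe. The medians of the downstream and upstream lists were 0.10 and -0.10, beside 0.13 over all probes.

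Between 21 and 8 weeks the downstream list had 23 of 32 probes higher and 3 lower, beside 41.5 and 15.2% of all probes, with Endog higher by 0.61 ± 0.11. The upstream list had 5 of 30 higher and 11 lower, beside those shares, and Casp2 fell by 0.55 ± 0.07. By sex, none of the rows of the 4 lists passed an adjusted p of 0.05 at any age in limma. At an unadjusted p under 0.05, 3 of their 62 rows passed at 8 weeks, 12 at 21 weeks and 4 at 78 weeks, beside 5.74, 15.9 and 5.65% of all rows. Among them Stat3 at 21 weeks was 0.44 ± 0.12 higher in females.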

How the data were processed

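Whole hearts of 30 rats were hybridized singly to Agilent rat arrays with Cy3 and read with Agilent Feature Extraction 9.5.1.1. The scanner files deposited by the authors give an intensity per spot (the processed signal, background-subtracted by the software, and raw pixel means and medians) and flags for signal well above background. The authors' tables, 1 per age, hold intensity relative to each array's 75th percentile, made from intensities exported from ArrayTrack by averaging the probes of a gene and removing genes judged not expressed. Between 99.66 and 99.69% of their rows were rebuilt from the scanner files within 0.002 (log2). The 21-week male columns name no rat, and the rebuilt values gave it.

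Replicates are separate rats. Sexes were compared within each table on log2 values, with limma 3.58.1 in R 4.3.3 over all rows and, for single members, exact permutation tests. Ages and interactions were compared on log2 of the scanner signal scaled to each array's 75th percentile, over 41012 probes in 1 limma fit with the slide as a random block. P-values were adjusted by Benjamini-Hochberg over all rows or probes, with a threshold of 0.05, and the code was tested on simulated data. Alternatives were quantile normalization, normexp (offset 50), raw median signal, dim rows left out, the methods' t-test, slide, scan day or replicate as a block, 1 sex, 1 scan day or 1 slide by itself, and each array left out. All members are described, list genes are named if they passed the threshold or had the 3 lowest p of a list, and the 2 most correlated genes per member were eligible. Members and lists were chosen with earlier results of these data known. Subtraction of background makes dim probes less certain, and scaling to a percentile makes every level relative to the other genes of that array. Figures were drawn with matplotlib 3.10.9. Some genes of the lists are counted but not reported here by name.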

Additional observations from a re-analysis of the deposited data

Results flagged for a closer look

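Among 61 groups of 5 rats tested for 1 rat far from the other 4 (a gap above 0.71 of the group's range), 12 had such a rat. The cutoff flags about 1 in 20 independent groups by chance. These groups share the same rats and hold members that vary together, so the count cannot be set against that share. Values are log2 of the authors' tables. Female replicate 4 at 78 weeks stood apart for 3 members, with Bad at 0.67 (others -0.01 to 0.19), Bcl2l1 at 1.71 (others 0.91 to 1.12) and Bok at -2.42 (others -1.85 to -1.63). Male replicate 2 at 78 weeks was low for Bax at -0.90 (others -0.45 to -0.34) and for the row of LOC681314 at 1.64 (others 2.08 to 2.23). Female replicate 2 at 21 weeks had Bcl2l2 at -2.63 (others -1.61 to -1.23) and Bok at -1.06 (others -1.45 to -1.35). Male replicate 1 at 21 weeks had Bak1 at 1.02 (others 1.46 to 1.61). Male replicate 1 at 78 weeks had the Bid tag at -3.37 (others -2.71 to -2.52). At 8 weeks, Bcl2 (AF149299) was at -3.71 in female replicate 1 (others -2.86 to -2.57), Mcl1 at 1.46 in female replicate 4 (others 1.56 to 1.60) and Bcl2l1 at 1.30 in male replicate 4 (others 1.13 to 1.16).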

How the results depend on the processing

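No member passed an adjusted p of 0.05 between the sexes under any alternative run. At an unadjusted p under 0.05, the count at 8 weeks (0) became 1 with dim rows left out, 1 with normexp and quantile normalization (added after the data were seen) and 2 with the methods' t-test. At 21 weeks (1) it became 2 with quantile normalization and 0 with normexp, and at 78 weeks (0) it was 1 on scan day 2. With 1 array left out the counts were 0 to 1, 0 to 3 and 0 to 1.

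Small sex differences changed sign. Bax at 8 weeks became 0.0015 with normexp, 0.0048 with normexp and quantile and 0.0096 with raw medians, and -0.059 to 0.029 with 1 array left out. LOC681314 at 21 weeks became 0.42, 0.029 and 0.048 in the same order, and at 78 weeks 0.032 without the 2 arrays at odds with their labels, 0.039 on scan day 1 and -0.11 to 0.038 with 1 array left out. Bak1 at 21 weeks became 0.24 with normexp (-0.16 to 0.0055 with 1 left out). Mcl1 at 78 weeks became -0.080 with normexp and -0.0020 on scan day 1. Bcl2l2 at 78 weeks became -0.12 without the 2 arrays. Bad at 78 weeks became 0.083 on scan day 2 (-0.13 to 0.040 with 1 left out), Bad at 8 weeks ran from -0.088 to 0.0077 and Bax at 78 weeks from -0.018 to 0.13. The Bad interaction from 8 to 21 weeks became 0.074 with normexp.

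The counts of members called between ages (6 for 78 against 8 weeks, 11 for 78 against 21 and 13 for 21 against 8) became 0, 0 and 0 with normexp, 1, 4 and 2 in females and 0, 6 and 7 in males, where fewer rats were fitted. Calls over all probes in the fits of 1 sex are not reported here, so those member counts cannot be set beside a share. They were 1 for 78 against 21 weeks on the second scan day and 0 for 78 against 8 on the slide with both ages, and with 1 array left out 4 to 6, 9 to 13 and 10 to 13. With normexp, 78 against 8 weeks gave -0.26 for Bcl2l1, -0.35 for Bcl2l2 and -0.30 for Mcl1, and 21 against 8 weeks gave -0.033 for Bax and -0.048 for Mcl1; the cause was not tested. Bcl2l2 at 78 against 8 weeks was -0.017 in males, -0.015 on the slide with both ages (Bok -0.14 there) and -0.012 to 0.053 with 1 array left out.

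Replicate numbers were not treated as pairs in the main fits. The female and male of one number shared a slide, and their deviations from the group means correlated at -0.13 to 0.31. Of these 15 correlations, 7 were above 0.1. Rats of different numbers were not compared, so whether the numbers pair the rats was not settled. With the replicate block, the sex counts were 0, 1 and 0 at an unadjusted p and the age counts 4, 10 and 10. The share of all probes called between ages with that block is not reported here, so the age counts cannot be set beside it. Over all rows, calls between sexes moved from 28 to between 5 (replicate block) and 59 (normexp and quantile) at 8 weeks, from 14 to between 1 (normexp) and 98 at 21 weeks, and from 0 to 9 at 78 weeks without the 2 arrays. Over all probes, 4438 calls for 78 against 8 weeks became 337 with normexp and 12095 on the first scan day, 13216 for 78 against 21 became 283 with normexp, and 23272 for 21 against 8 became 832 with normexp and 12592 with quantile normalization. Probes near background, such as those of Bcl2 and Bcl2l11, carry the least certain values.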

Other observations

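Other genes of the pathway differed between 78 and 21 weeks. In the downstream list, 2 of 32 probes were higher and 11 lower by limma's adjusted p, beside 14 and 18.3% of all probes. Endog, a mitochondrial nuclease, fell by 0.71 ± 0.11, Diablo, which relieves the inhibition of caspases, fell by 0.52 ± 0.09 and Vdac2, a channel of the outer membrane that binds Bak1, fell by 0.45 ± 0.07. In the upstream list 10 of 30 probes were higher and 6 lower, beside those shares. Usp9x, a deubiquitinase of Mcl1, rose by 0.97 ± 0.10 on A_44_P502527. Among the further BH3-only genes, 2 of 13 probes were higher and 2 lower, beside 14 and 18.3% of all probes. Bnip3 fell by 0.49 ± 0.08 and Bik by 0.41 ± 0.12.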
